A study of Mus musculus with 38 samples.

Results

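T-bet, the product of Tbx21, is the transcription factor that defines the interferon-gamma-producing Th1 lineage of CD4 T helper cells. It was removed by the allele Tbet<tm1> in 1 of the 14 RNA libraries of the series, and that library was compared with 1 wild-type (WT) Th1 library, WT Th1 replicate 2. Both came from sorted naive CD4 T cells of spleen and lymph nodes of C57BL/6J mice, grown in Th1 conditions for 7 days and restimulated for 2 h on plate-bound anti-CD3/CD28 with IL-12. The other libraries set beside them were STAT4 KO Th1 cells (STAT4<tm1>), WT Th2 cells (restimulated with IL-4 in place of IL-12), WT Th1 replicate 1, and WT and STAT4 KO Th1 cells carrying a T-bet or a control vector, 1 library each. Th2 cells without STAT6 (Stat6<tm1>) and Th2 cells with a GATA3 or control vector enter only where levels in all libraries are given. The vector cultures are labelled 5 days in one field and 7 days in another. The labels give no age or sex, no count of animals, and no statement of which exons the allele removes. The series also holds ChIP samples, making 38 samples in all, which are not analysed here.

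Of the 2 WT Th1 libraries, replicate 2 was used because its values resemble those of the T-bet KO library: the labels record no date or run. The log2 levels of the 7975 genes compared had a Pearson r of 0.961 between the T-bet KO library and WT Th1 replicate 2, a description across genes and not across samples. Over the same genes, the other 12 libraries had r between 0.722 and 0.824 with the T-bet KO library. The genes were kept by their levels in the pair itself, so genes present only in other libraries do not enter these values. Small RNA genes took 22.2% of all FPKM in T-bet KO and 20.7% in WT Th1 replicate 2, against 4.43% to 7.65% in the other 12 libraries. FPKM summed to 568840 in T-bet KO and 565664 in WT Th1 replicate 2, against 318391 to 388800 in the other 12. Levels in those libraries are given as listed and were not rescaled, so small differences from the pair carry little meaning. FPKM is a fragment count corrected for transcript length and sequencing depth. The comparison is 1 library against 1, so it has no replicate check and no p-value, and a difference between mice or cultures cannot be told apart from a difference between genotypes. WT Th1 replicate 1 is given beside it as the other WT value. In bulk RNA, fewer cells making a transcript and less transcript per cell cannot be told apart.

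T-bet is induced by T cell receptor, interferon-gamma and IL-12 signals, activates Ifng, and restrains the Th2 programme led by GATA3, the factor that opens the genes of IL-4, IL-5 and IL-13. STAT4 carries the IL-12 signal and is a second input to the same Th1 genes. Eomes, a related T-box factor, is best known from CD8 T cells and natural killer cells.

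The targeted gene was the gene with the largest fall. Tbx21 (mm9 chromosome 11, 96959321 to 96976645) was at 4.18 FPKM in T-bet KO cells, with a counting interval of 3.79 to 4.58 listed by Cufflinks, against 153 FPKM in WT Th1 replicate 2 (151 to 155) and 88.4 FPKM in WT Th1 replicate 1. The T-bet KO level was thus 2.74% of that in WT Th1 replicate 2, a difference of −4.89 on the log2(FPKM + 1) scale that all differences below use. Gene-level values do not show where in the gene the remaining reads lie. In the other 11 libraries Tbx21 was at 244.6 FPKM in WT Th1 cells with the T-bet vector against 61.0 with the control vector, at 137 FPKM in STAT4 KO Th1 cells with the T-bet vector against 35.1 with the control vector, at 47.9 FPKM in STAT4 KO Th1 cells, and at 3.61 FPKM in WT Th2 cells. It was at 43.7 FPKM in STAT6 KO Th2 cells, at 24.7 FPKM in STAT6 KO Th2 cells with a GATA3 vector against 40.4 with a control vector, and at 2.08 FPKM in WT Th2 cells with a GATA3 vector against 2.43 with a control vector. As listed and without rescaling, the T-bet KO level was just above that of the 3 WT Th2 libraries and far below every other library. Fragments of the T-bet vector itself may count towards Tbx21 where it was added. Eomes moved the other way: it was at 17.1 FPKM in T-bet KO cells against 6.15 and 5.75 in the WT Th1 libraries, and no other library exceeded 6.35 FPKM.

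Of the 23700 entries of a table, 7975 reached 3 FPKM in either library and entered the comparison. Of these, 180 (2.26%) were at least 2-fold lower in T-bet KO cells and 163 (2.04%) at least 2-fold higher, while 95.7% lay within 2-fold. The median difference was −0.02 and 90% of genes, from the 5th to the 95th percentile, lay between −0.72 and 0.75. At 4-fold, 22 genes were lower and 11 higher. Counting error is not what limits these counts: the 2 libraries' counting intervals were apart for 179 of the 180 lower and all 163 higher genes, but also for 70.2% of all genes compared. Just inside the filter on low values, Neil3 had 3.00 FPKM in T-bet KO cells and 2.30 in WT Th1 replicate 2. Just outside it, Opn3 had 2.997 FPKM in T-bet KO cells and 1.54 in WT Th1 replicate 2.

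**Figure D1:**
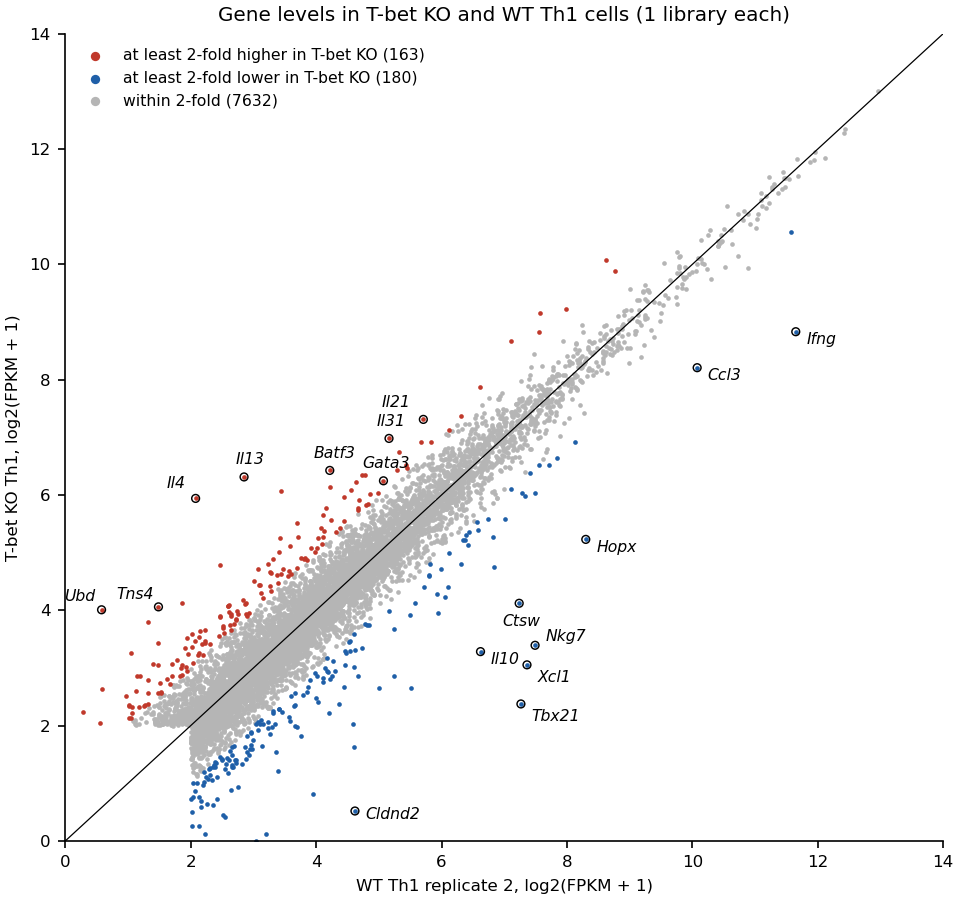
Each point is 1 of the 7975 genes compared, with its level in WT Th1 replicate 2 on the horizontal axis and in the T-bet KO library on the vertical axis, both as log2(FPKM + 1), and the line marks equal levels. Red points (163) are at least 2-fold higher and blue points (180) at least 2-fold lower in T-bet KO. Among the labelled genes Tbx21, Xcl1, Cldnd2 and Nkg7 lie furthest below the line, and Il4 and Il13 furthest above it.

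Some of these differences were not shared by the other WT Th1 library. Of the 180 lower genes, 126 were also below WT Th1 replicate 1 and 73 were at least 2-fold below it, whereas 13 were at least 2-fold above it. Of 7972 compared genes with an estimate in replicate 1, 45.1% were below it in T-bet KO cells, 12.8% by at least 2-fold, and 54.9% were above it, 17.5% by at least 2-fold. Of the 163 higher genes, 144 were above WT Th1 replicate 1, 105 of them by at least 2-fold, and 8 were at least 2-fold below it. Both comparisons use the same T-bet KO library, so these counts describe agreement in direction and are no replicate test.

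The secreted signals of Th1 cells were among the largest falls. Ifng, which encodes interferon-gamma, the signature cytokine of Th1 cells, was at 455 FPKM in T-bet KO cells, against 3212 FPKM in WT Th1 replicate 2 and 8326 FPKM in WT Th1 replicate 1 (difference from replicate 2, −2.82). T-bet KO cells thus held 14.2% of the WT Th1 replicate 2 level, which was still far above the 14.1 FPKM of WT Th2 cells and the 60.3 FPKM of STAT4 KO Th1 cells. Xcl1, the chemokine lymphotactin that draws cross-presenting dendritic cells, was at 7.30 FPKM in T-bet KO cells, against 164 and 414 FPKM in WT Th1 replicates 2 and 1 (−4.31). Ccl3 and Ccl4, neighbouring genes for the inflammatory chemokines MIP-1 alpha and beta, were at 294.6 and 1514 FPKM in T-bet KO cells, against 1079 and 3036 FPKM in WT Th1 replicate 2 and 729.7 and 2312 FPKM in replicate 1 (−1.87 and −1.003). Ccl4 lies at the 2-fold line. Ccl5, the chemokine RANTES, was higher, at 119.6 FPKM in T-bet KO cells against 55.7 and 48.5 FPKM in the WT Th1 libraries (1.09). Il10, whose product dampens inflammation and is made by both lineages, was at 8.73 FPKM in T-bet KO cells, against 97.4 and 72.0 FPKM in the WT Th1 libraries (−3.34).

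Not all Th1 cytokines were lower. Tnf was at 1112 FPKM in T-bet KO cells and 881 FPKM in WT Th1 replicate 2 (0.34), and Lta and Csf2 differed by −0.16 and −0.06. Il2, the T cell growth factor, was at 945 FPKM in T-bet KO cells and 434 FPKM in WT Th1 replicate 2 (1.12), but WT Th1 replicate 1 had 2762 FPKM. Of 18 Th1 cytokine and surface receptor genes, all of which passed the filter, 7 were at least 2-fold lower and 2 higher in T-bet KO cells, with a median difference of −0.66, against 2.26% lower, 2.04% higher and a median of −0.02 over all genes compared. The 7 lower became 13 against WT Th1 replicate 1, 11 against the mean of both WT Th1 libraries and 4 with a pseudocount of 5 FPKM.

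Among the receptors, the chains of a single receptor could differ in opposite directions. Ifngr1, the ligand-binding chain of the interferon-gamma receptor, was at 37.4 FPKM in T-bet KO cells, against 112 and 135 FPKM in WT Th1 replicates 2 and 1 (−1.56). Its signalling partner Ifngr2 was at 8.62 FPKM in T-bet KO cells, against 1.07 and 4.57 FPKM in the WT Th1 libraries (2.22). The IL-12 receptor showed the same split. Il12rb2, its Th1-restricted chain, was at 34.0 FPKM in T-bet KO cells against 84.9 and 99.9 FPKM in the WT Th1 libraries (−1.29), and Il12rb1, the chain shared with the IL-23 receptor, was at 49.7 FPKM in T-bet KO cells against 24.4 and 7.14 FPKM in the WT Th1 libraries (0.99, just under 2-fold). For all 4 chains the T-bet KO value lay outside the range of the 2 WT Th1 libraries.

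The IL-18 receptor chains Il18r1 and Il18rap, at 97.5 and 41.9 FPKM in T-bet KO cells and at 194.7 and 77.3 FPKM in WT Th1 replicate 2, were lower by just under 2-fold (−0.99 and −0.87). The chemokine receptors that guide Th1 cells to inflamed tissue were at least 2-fold lower: Cxcr3 was at 64.4 FPKM in T-bet KO cells against 154.7 and 150.4 FPKM in the WT Th1 libraries (−1.25), and Cxcr6 at 4.05 FPKM in T-bet KO cells against 11.6 and 51.2 FPKM in the WT Th1 libraries (−1.32). Ccr4, a receptor typical of Th2 cells, was higher, at 34.7 FPKM in T-bet KO cells against 16.0 and 23.8 FPKM in the WT Th1 libraries (1.07). Havcr2, the gene of the inhibitory receptor TIM-3 found on Th1 cells, was at 4.11 FPKM in T-bet KO cells against 11.7 and 12.5 FPKM in the WT Th1 libraries (−1.31).

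A group of cytotoxic and natural killer type genes was lower in T-bet KO cells. Of 20 listed, 14 passed the filter, of which 7 were at least 2-fold lower (2.26% of all genes compared) and 0 higher (2.04% of all), with a median difference of −0.81. With a pseudocount of 5 FPKM 3 were lower. Nkg7, a membrane protein of cytotoxic granules (mm9 chromosome 7, 50692508 to 50693616), was at 9.50 FPKM in T-bet KO cells, against 179 and 306 FPKM in WT Th1 replicates 2 and 1 (−4.10). The adjacent gene Cldnd2, which encodes a claudin-domain protein and starts 2570 bases further along, was at 0.43 FPKM in T-bet KO cells, against 23.6 and 8.79 FPKM in the WT Th1 libraries (−4.10). Both genes were below both WT Th1 libraries. Ctsw, the protease cathepsin W, was at 16.4 FPKM in T-bet KO cells against 149.9 and 124.6 FPKM in the WT Th1 libraries (−3.12). Gzma, granzyme A, was at 2.08 FPKM in T-bet KO cells and 23.3 FPKM in WT Th1 replicate 2 (−2.98), but WT Th1 replicate 1 had 4.27 FPKM. Prf1, the pore-forming perforin, was likewise at 0.92 FPKM in T-bet KO cells, 5.71 FPKM in WT Th1 replicate 2 and 1.30 FPKM in replicate 1 (−1.81). The WT Th1 libraries differ from each other by several-fold in these last 2 genes, so how far Gzma and Prf1 fall depends on which one is used. Gzmb, granzyme B, was not lower, at 169.6 FPKM in T-bet KO cells and 125 FPKM in WT Th1 replicate 2 (0.44), nor was Srgn, the granule proteoglycan, at 1542 FPKM in T-bet KO cells and 1242 FPKM in WT Th1 replicate 2 (0.31). Of 6 natural killer markers only Eomes reached 3 FPKM, and Ncr1 was at 0 in both libraries. The natural killer receptor genes Klrk1 and Klrc1, outside these 6, were low but present. They were at 3.35 and 0.70 FPKM in T-bet KO cells, 5.27 and 3.36 FPKM in WT Th1 replicate 2, and 0.97 and 1.85 FPKM in replicate 1.

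Sequences are shown for 4 of the 15 largest falls. Xcl1 and Nkg7 were picked because they hold the same T-box letters. The equally lower Cldnd2 and the abundant Ifng were picked because they do not. Each sequence is the 300 bases from 250 before to 50 after the gene start, in the direction of transcription. The sequences were taken from RefSeq on GRCm38.p6, another build than the mm9 of the expression tables. The window of Xcl1 is chr1:164935473-164935772 on the minus strand. Those of Nkg7, Cldnd2 and Ifng are chr7:43436888-43437187, chr7:43440566-43440865 and chr10:118440796-118441095 on the plus strand. Capitals mark GGTGTGA, the core T-box letters, searched on both strands.
Xcl1: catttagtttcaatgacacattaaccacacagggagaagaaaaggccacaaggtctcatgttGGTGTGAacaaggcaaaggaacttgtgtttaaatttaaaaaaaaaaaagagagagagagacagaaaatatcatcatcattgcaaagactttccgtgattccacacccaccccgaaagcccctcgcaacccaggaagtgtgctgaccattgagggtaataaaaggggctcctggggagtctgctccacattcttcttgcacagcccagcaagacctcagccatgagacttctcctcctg
Nkg7: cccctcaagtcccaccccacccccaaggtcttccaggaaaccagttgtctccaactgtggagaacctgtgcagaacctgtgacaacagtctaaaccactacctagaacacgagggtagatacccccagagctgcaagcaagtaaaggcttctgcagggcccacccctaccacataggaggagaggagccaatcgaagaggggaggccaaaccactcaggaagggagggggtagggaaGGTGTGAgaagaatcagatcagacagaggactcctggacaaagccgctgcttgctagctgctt
Cldnd2: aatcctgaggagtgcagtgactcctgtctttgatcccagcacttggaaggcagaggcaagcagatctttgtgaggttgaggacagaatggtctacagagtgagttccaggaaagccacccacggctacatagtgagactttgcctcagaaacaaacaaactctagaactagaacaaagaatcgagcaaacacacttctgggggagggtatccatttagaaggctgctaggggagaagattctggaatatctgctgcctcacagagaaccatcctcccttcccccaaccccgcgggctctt
Ifng: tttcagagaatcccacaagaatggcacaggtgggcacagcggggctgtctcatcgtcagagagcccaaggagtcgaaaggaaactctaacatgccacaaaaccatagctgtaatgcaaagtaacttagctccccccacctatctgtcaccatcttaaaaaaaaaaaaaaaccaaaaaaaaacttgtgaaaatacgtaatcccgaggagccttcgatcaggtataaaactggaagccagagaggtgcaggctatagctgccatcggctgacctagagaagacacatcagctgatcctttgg
The letters begin 188 bases before the start of Xcl1 and 13 bases before that of Nkg7, both on the forward strand. Of the 15 largest falls, 13 had a window, and Xcl1 and Nkg7 were the only 2 of these 13 with the letters. The 4 windows shown therefore do not give the share among the falls. The letters occur in a window of 4.6% of the 27025 gene symbols of the promoter table. The GATA-type letters AGATAAG, searched in the same way, are in none of the 4 windows and in 3.5% of symbols. Windows were at hand for 130 of the 180 lower genes, fewer than 80%, so a share over the lower genes is not given. These matches are letters in a window and were not tested as binding sites.

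Among the genes listed as Th1 transcription factors, Hopx was lower in T-bet KO cells than in both WT Th1 libraries, and Hlx was lower than in replicate 2 only. Hopx, a homeodomain-only protein known in mouse effector and memory Th1 cells, was at 36.5 FPKM in T-bet KO cells, against 314 and 115 FPKM in WT Th1 replicates 2 and 1 (−3.07). Hlx, a homeobox factor that augments Ifng expression with T-bet, was at 3.67 FPKM in T-bet KO cells and 17.5 FPKM in WT Th1 replicate 2 (−1.98), but WT Th1 replicate 1 had only 0.39 FPKM. Runx3, a T-bet partner at Ifng and Il4, was at 65.4 FPKM in T-bet KO cells against 111 and 58.2 FPKM in the WT Th1 libraries (−0.75). Stat4 was at 7.52 FPKM in T-bet KO cells and 15.1 FPKM in WT Th1 replicate 2 (−0.92), with 60.8 FPKM in WT Th1 replicate 1. For Hlx and Runx3 the T-bet KO value lay between the 2 WT Th1 values. Of 13 Th1 transcription factors compared, 3 were at least 2-fold lower (Tbx21, Hopx and Hlx) and 1 was higher (Eomes), against 2.26% and 2.04% of all genes compared, and the median difference was −0.25. Twist1 and Irf1, also in that list, differed by 0.64 and 0.83.

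The 2 largest rises were Th2 cytokine genes. Il4, the signature Th2 cytokine, was at 60.4 FPKM in T-bet KO cells, against 3.22 and 3.61 FPKM in WT Th1 replicates 2 and 1 (3.86). Il13, the next gene on mm9 chromosome 11 and the cytokine of mucus and airway responses, was at 78.5 FPKM in T-bet KO cells, against 6.21 and 14.7 FPKM in the WT Th1 libraries (3.46). As listed, the T-bet KO value of Il13 was near the 74.8 FPKM of WT Th2 cells, whereas that of Il4 was well below their 513 FPKM. All FPKM summed to 568840 in T-bet KO and 388800 in WT Th2, so near values in these 2 libraries do not show equal levels. Il31, the itch cytokine, was at 125 FPKM in T-bet KO cells, against 34.8 and 30.7 FPKM in the WT Th1 libraries and 1708 FPKM in WT Th2 cells (1.82). Gata3 itself was at 74.9 FPKM in T-bet KO cells, against 32.7 and 35.4 FPKM in the WT Th1 libraries and 62.1 FPKM in WT Th2 cells (1.17). Tnfrsf8, the activation receptor CD30, was at 37.0 FPKM in T-bet KO cells, against 9.78 and 0.92 FPKM in the WT Th1 libraries (1.82). For these 5 genes T-bet KO was above both WT Th1 libraries.

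Other Th2 genes were under the filter, within 2-fold or lower. Il5, the eosinophil growth factor whose gene lies in the same cluster as Il4 and Il13, was at 0.017 FPKM in T-bet KO cells and 0 in WT Th1 replicate 2. Il9 and Il6 were also under the filter, at 0.067 FPKM or less in both libraries. Of the 7 Th2 cytokine genes compared, 3 were at least 2-fold higher and 2 lower (Il10 and Areg), with a median difference of 0.79, against 2.04% higher and 2.26% lower among all genes compared. Areg, the epidermal growth factor family member amphiregulin, was at 11.8 FPKM in T-bet KO cells against 36.7 and 107 FPKM in the WT Th1 libraries (−1.56). Of the 10 Th2 transcription factors and receptors compared, 3 were at least 2-fold higher (Gata3, Ccr4 and Tnfrsf8) and 0 lower, with a median difference of 0.27, beside the same shares of all genes. Maf, Gfi1 and Il4ra differed by 0.31, 0.24 and 0.30, and Il1rl1, the IL-33 receptor of Th2 cells, by −0.68.

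Other rises were spread over several functions. Batf3, an AP-1 family factor, was at 84.9 FPKM in T-bet KO cells, against 17.6 and 1.69 FPKM in the WT Th1 libraries (2.21), and its relative Batf2 at 3.68 FPKM in T-bet KO cells against 0.21 FPKM in each WT Th1 library (1.95). Il21, a cytokine of follicular helper and Th17 cells, was at 158 FPKM in T-bet KO cells, against 51.3 and 39.3 FPKM in the WT Th1 libraries (1.601). No other gene of the Th17 list was at least 2-fold higher, and Il17a was at 0.046 FPKM in T-bet KO cells and 0 in WT Th1 replicate 2. Tns4, a focal adhesion protein, was at 15.7 FPKM in T-bet KO cells, against 1.80 and 1.45 FPKM in the WT Th1 libraries (2.57). In Msc, a basic helix-loop-helix repressor, the values were 26.5 FPKM in T-bet KO cells and 4.51 and 0.95 FPKM in the WT Th1 libraries (2.32). Pml, the scaffold of nuclear bodies, was at 69.1 FPKM in T-bet KO cells against 17.7 and 10.3 FPKM in the WT Th1 libraries (1.91). The muscle-type gene Myl10 and the cytoskeletal Pdlim4 were at 9.85 and 5.17 FPKM in T-bet KO cells, against 1.77 and 0.50 FPKM in WT Th1 replicate 2 (1.97 and 2.04).

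A few of the 15 largest rises depended on which WT Th1 library was used. Ubd, the ubiquitin-like modifier FAT10, was at 15.1 FPKM in T-bet KO cells and 0.49 FPKM in WT Th1 replicate 2 (3.43), but at 11.98 FPKM in WT Th1 replicate 1. Dapl1 was at 65.9 FPKM in T-bet KO cells and 9.81 FPKM in WT Th1 replicate 2 (2.63), but at 75.8 FPKM in replicate 1. Cdkn2a, a cell cycle inhibitor gene, was at 12.9 FPKM in T-bet KO cells against 1.501 and 6.97 FPKM in the WT Th1 libraries (2.47), and Cd74, the invariant chain of MHC class II, at 44.9 FPKM in T-bet KO cells against 11.96 and 23.7 FPKM in the WT Th1 libraries (1.82). H2-Ab1, a class II chain named here after its value was seen, was lower, at 36.1 FPKM in T-bet KO cells and 81.9 FPKM in WT Th1 replicate 2 (−1.16), with 4.50 FPKM in replicate 1. Dapl1 was the only 1 of the 15 in which WT Th1 replicate 1 exceeded T-bet KO.

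The rest of the 15 largest falls covered signalling and membrane genes. Pld4, an endolysosomal nuclease, was at 0.77 FPKM in T-bet KO cells against 14.5 and 9.53 FPKM in the WT Th1 libraries (−3.13), and Eps8l1, an actin-linked adaptor, at 0.086 FPKM in T-bet KO cells against 8.15 and 2.64 FPKM (−3.08). Ifitm1, an interferon-inducible antiviral membrane protein, was at 5.29 FPKM in T-bet KO cells against 44.8 and 107.6 FPKM in the WT Th1 libraries (−2.87), and the phosphatase Ptpn5 at 3.07 FPKM in T-bet KO cells against 23.0 and 7.45 FPKM (−2.56). For 2 genes the direction hung on the WT Th1 library. Pik3ap1, a phosphoinositide 3-kinase adaptor, was at 6.22 FPKM in T-bet KO cells and 36.7 FPKM in WT Th1 replicate 2 (−2.39), but at 4.87 FPKM in replicate 1. Dnm1, a dynamin, was at 5.29 FPKM in T-bet KO cells and 31.0 FPKM in WT Th1 replicate 2 (−2.35), but at 0.60 FPKM in replicate 1.

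**Figure D2:**
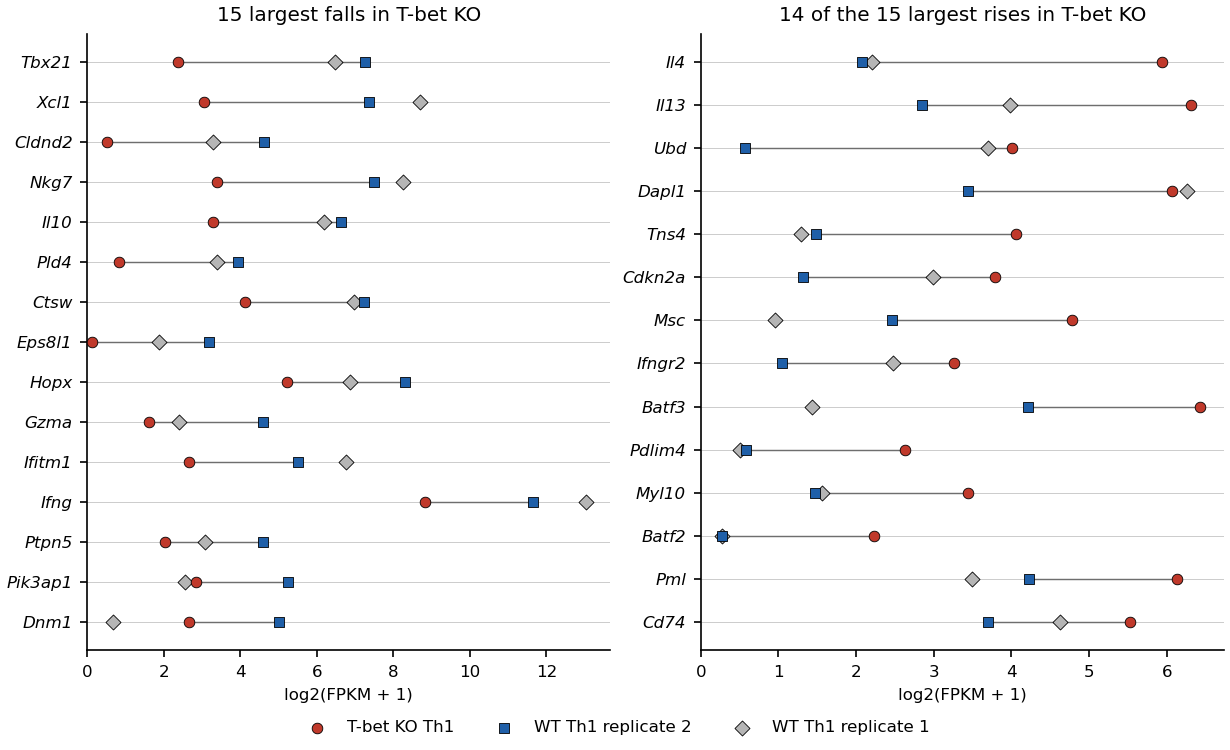
Levels of the 15 genes with the largest falls (left) and 14 of the 15 with the largest rises (right), as log2(FPKM + 1) on the horizontal axis, in the T-bet KO library (red circles), WT Th1 replicate 2 (blue squares) and WT Th1 replicate 1 (grey diamonds). The black line joins the 2 libraries compared. Among the falls, Pik3ap1 and Dnm1 have their replicate 1 value below T-bet KO, and among the rises Dapl1 has it above.

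Although Ifng was lower in T-bet KO cells, most listed genes that interferons induce were not. Of 31 interferon response genes, 23 passed the filter. Of these, 5 were at least 2-fold higher in T-bet KO cells (2.04% of all genes compared) and 0 lower (2.26% of all). Differences were above 0 for 22 of the 23, with a median of 0.58 against −0.02 over all genes compared. With a pseudocount of 5 FPKM 3 were higher. Interferon-inducible genes outside the list, named after their values were seen, went both ways. At least 2-fold lower were Ifitm1 (above), Ifitm2 (−1.34), Ifitm3 (−1.03) and Epsti1 (−1.16). At least 2-fold higher were Gbp1 (1.118), Gbp10 (1.041), Ifi27l2a (1.455) and Ifi27l2b (1.128). Irgm1, an interferon-inducible GTPase, was at 46.3 FPKM in T-bet KO cells and 17.8 FPKM in WT Th1 replicate 2 (1.33), with 68.9 FPKM in replicate 1. Gbp2, a guanylate-binding protein, was at 599 FPKM in T-bet KO cells and 252 FPKM in WT Th1 replicate 2 (1.25), with 815 FPKM in replicate 1. In Irf7 and Isg20, the values were 32.8 and 233 FPKM in T-bet KO cells, 14.03 and 96.6 FPKM in WT Th1 replicate 2 (1.17 and 1.26), and 9.29 and 40.7 FPKM in replicate 1. Cxcl10, the fifth, was at 4.89 FPKM in T-bet KO cells and 1.48 FPKM in WT Th1 replicate 2 (1.25), and at 40.0 FPKM in replicate 1. Irgm1, Gbp2 and Cxcl10 were thus above WT Th1 replicate 2 but below replicate 1. Of the interferon-gamma receptor chains, Ifngr2 was higher and Ifngr1 lower, and their part in these differences was not tested.

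Replication genes also differed. Of 15 cell cycle genes compared, 4 (Top2a, Mcm2, Mcm5 and Rrm2) were at least 2-fold higher in T-bet KO cells (2.04% of all genes compared) and 0 lower (2.26% of all), and the median difference was 0.53. The 4 became 0 against WT Th1 replicate 1, 1 against the mean of both WT Th1 libraries and 0 with a pseudocount of 5 FPKM. Top2a, a topoisomerase of dividing cells, was at 19.2 FPKM in T-bet KO cells and 8.66 FPKM in WT Th1 replicate 2 (1.07), and Rrm2, a subunit of ribonucleotide reductase, at 7.75 FPKM in T-bet KO cells and 2.45 FPKM in WT Th1 replicate 2 (1.34). WT Th1 replicate 1 exceeded both libraries, with 87.3 FPKM of Top2a and 18.7 FPKM of Rrm2. Among 9 replication-dependent histone genes compared, 4 were at least 2-fold higher, beside 2.04% of all genes, and the median difference was 0.95. The largest was in Hist1h3c, at 4.74 FPKM in T-bet KO cells against 0.96 and 4.00 FPKM in the WT Th1 libraries (1.55). Histone genes are near-identical in sequence, so the counting could split their reads, and their transcripts mostly lack poly(A) tails, so their level also depends on how a library is made.

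Several programmes differed little. All 14 naive and memory genes, all 8 regulatory T cell genes compared and all 14 T cell receptor complex genes were within 2-fold, with medians of −0.10, 0.21 and −0.03. Of all genes compared 95.7% were within 2-fold, so counts within 2-fold do not set the lists of this paragraph apart. Tcf7 and Satb1, markers of less differentiated T cells, differed by 0.01 and −0.01. Of 19 early response genes of T cell receptor signalling, 18 were within 2-fold (median −0.07), and 1, the nuclear receptor Nr4a2, was lower, at 25.9 FPKM in T-bet KO cells against 114 and 113 FPKM in the WT Th1 libraries (−2.09). Glycolysis and cholesterol synthesis genes showed small differences mostly of 1 sign: 13 of 15 and 12 of 13 were below 0, and none was 2-fold lower. Their medians were −0.45 and −0.39, against −0.02 over all genes compared. The 22 ribosomal protein genes had a median of −0.09 and lay between −0.30 and 0.30. Another scaling of the 2 libraries moves every difference by at most 0.05 on the log2 scale. That is more than the median of the T cell receptor complex genes and less than the other list medians given here.

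**Figure D3:**
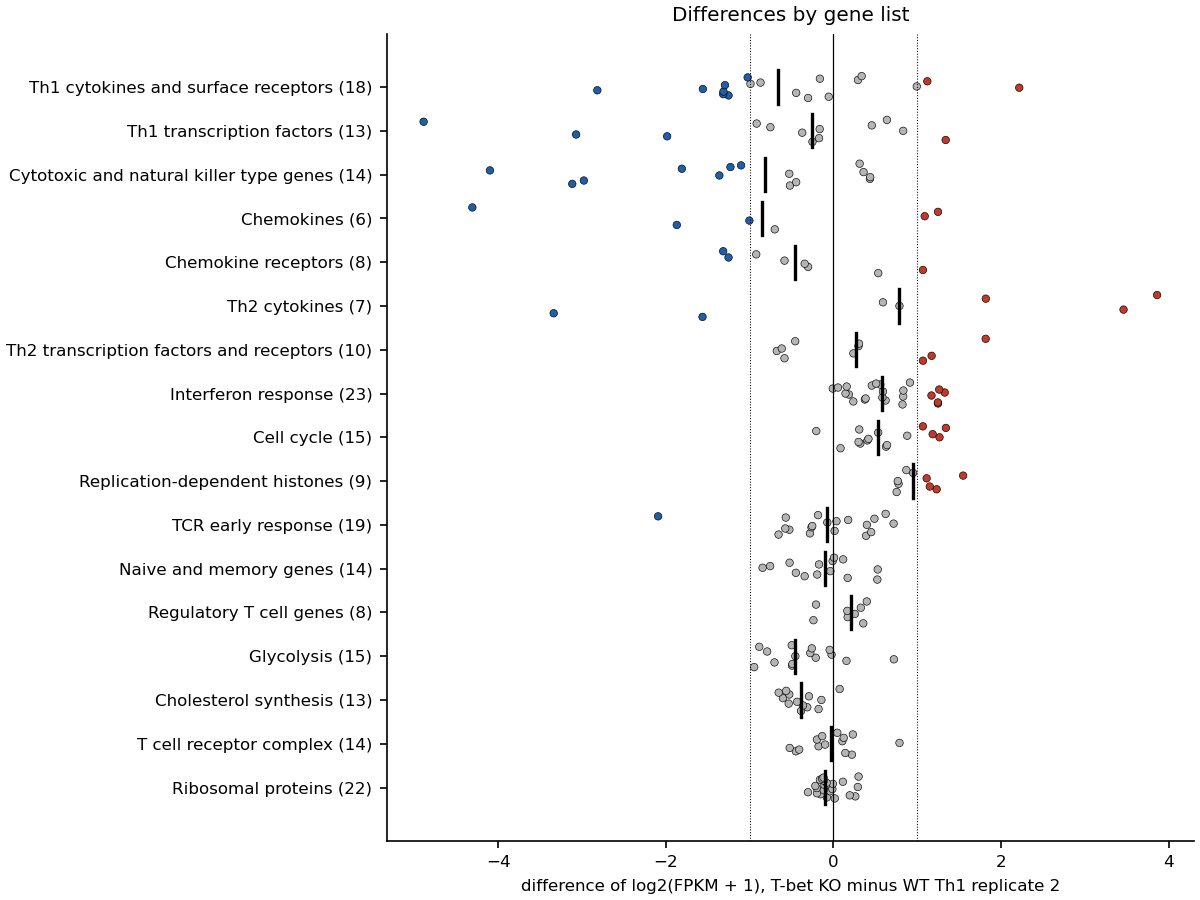
Each point is 1 gene that passed the filter, grouped by gene list with the number of genes in parentheses, and the horizontal axis is the difference of log2(FPKM + 1), T-bet KO minus WT Th1 replicate 2. Red and blue points are at least 2-fold higher and lower in T-bet KO, dotted lines mark 2-fold, and black bars are medians. The cytotoxic list has 7 blue and 0 red points, the interferon response list 5 red and 0 blue, and the ribosomal protein list lies within 0.31 of 0.

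Markers of CD4 T cells were present in both libraries and the listed markers of other cells were near 0 apart from Kit, Cd8b1 and Eomes; the MHC class II genes given above are in none of these lists. All 14 T cell receptor complex genes were above 3 FPKM in both, with Cd4 at 219 FPKM in T-bet KO cells and 235 FPKM in WT Th1 replicate 2. The highest of 7 B cell markers was 0.89 FPKM in T-bet KO cells and 1.30 FPKM in WT Th1 replicate 2, and that of 11 myeloid markers was 0.95 FPKM in T-bet KO cells and 1.79 FPKM in WT Th1 replicate 2. Cd8a was at 0.014 FPKM in T-bet KO cells and 0 in WT Th1 replicate 2, while Cd8b1 was at 2.61 FPKM in T-bet KO cells and 3.46 FPKM in WT Th1 replicate 2. Of the mast cell and basophil markers Kit alone reached 3 FPKM, at 3.22 FPKM in T-bet KO cells and 3.57 FPKM in WT Th1 replicate 2.

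The reverse manipulation, T-bet added by a vector, was measured in 4 libraries that share none with the T-bet KO pair. In WT Th1 cells, 14 genes (0.176%) were at least 2-fold higher with the T-bet vector than with the control vector and 18 (0.226%) lower. Of the 14, 11 were among the 180 genes lower in T-bet KO cells, which is 78.6% of the 14 and 6.11% of the 180; 0 of the 180 were lower with the vector. Tbx21 itself is 1 of the 11. The others are Xcl1, Nkg7, Cldnd2, Ccl3, Ccl4, Gzma, Prf1, Ctla2a, Spp1 and the predicted gene Gm12238. Of the 18 genes lower with the vector, 9 were among the 163 higher in T-bet KO cells (50.0% of the 18 and 5.52% of the 163), and 0 of the 163 were higher with it. These 9 include Il4, Il21, Il31, Ccr4, Batf3, Ubd, S100a6 and Tgm2. Genes named from these overlaps that are neither in the gene lists nor among the 15 largest differences were named after their values were seen.

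In STAT4 KO Th1 cells, which start from low Ifng, 37 genes (0.464%) were at least 2-fold higher with the T-bet vector than with the control vector and 79 (0.992%) lower. Of the 37, 21 were among the 180 lower in T-bet KO cells (56.8% of the 37 and 11.7% of the 180), Tbx21 included, and 5 of the 180 were lower with the vector. Of the 79, 13 were among the 163 higher in T-bet KO cells (16.5% of the 79 and 7.98% of the 163), among them Il4, Ccr4, Ifngr2, Dapl1 and Pdlim4. Leaving out Tbx21, 7 genes were lower in T-bet KO cells and higher with the vector in both WT and STAT4 KO Th1 cells: Xcl1, Nkg7, Cldnd2, Ccl3, Ccl4, Gzma and Ctla2a. Il4 and Ccr4 were higher in T-bet KO cells and lower with the vector in both.

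Among the 7, the control vector levels of Nkg7 and Ccl3 differed widely between the 2 genotypes, whereas those of Xcl1 were close. Nkg7 was at 436 FPKM with the T-bet vector and 158 FPKM with the control vector in WT Th1 cells, and at 422 FPKM with the T-bet vector and 8.41 FPKM with the control vector in STAT4 KO Th1 cells. Xcl1 was at 1125 FPKM with the T-bet vector and 317 FPKM with the control vector in WT Th1 cells, and at 3531 FPKM with the T-bet vector and 280.6 FPKM with the control vector in STAT4 KO Th1 cells. Ccl3 was at 1245 FPKM with the T-bet vector and 459.8 FPKM with the control vector in WT Th1 cells, and at 1559 FPKM with the T-bet vector and 59.7 FPKM with the control vector in STAT4 KO Th1 cells. With the T-bet vector the levels of Nkg7 and Ccl3 were alike in the 2 genotypes, and the control vector levels were not. Ifng was at 1739 FPKM with the T-bet vector and 22.6 FPKM with the control vector in STAT4 KO Th1 cells, but at 5199 FPKM with the T-bet vector and 4074 FPKM with the control vector in WT Th1 cells, a difference of 0.35. Cxcr3, Cxcr6, Il12rb2, Ctsw, Ly6c2, Serpinb9 and Serpinb6b, all at least 2-fold lower in T-bet KO cells, were higher with the vector in STAT4 KO Th1 cells and within 2-fold in WT Th1 cells. Il12rb2 was at 6.62 FPKM with the T-bet vector against 1.89 FPKM with the control vector in STAT4 KO Th1 cells, both far below the 64.5 FPKM with the T-bet vector and 59.98 FPKM with the control vector of WT Th1 cells.

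Some genes far lower in T-bet KO cells were within 2-fold with added T-bet. Il10 was at 6.90 FPKM with the T-bet vector and 8.26 FPKM with the control vector in WT Th1 cells, and at 0.20 FPKM with the T-bet vector and 0.03 FPKM with the control vector in STAT4 KO Th1 cells. Hopx was at 36.3 FPKM with the T-bet vector and 33.6 FPKM with the control vector in WT Th1 cells, and at 9.08 FPKM with the T-bet vector and 7.42 FPKM with the control vector in STAT4 KO Th1 cells. Il10 also separates T-bet KO from Th2 cells: WT Th2 cells had 894 FPKM. Ccl5 was the exception among the higher genes: it was higher in T-bet KO cells and also higher with the T-bet vector in STAT4 KO Th1 cells, at 36.8 FPKM against 7.62 FPKM with the control vector.

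**Figure D4:**
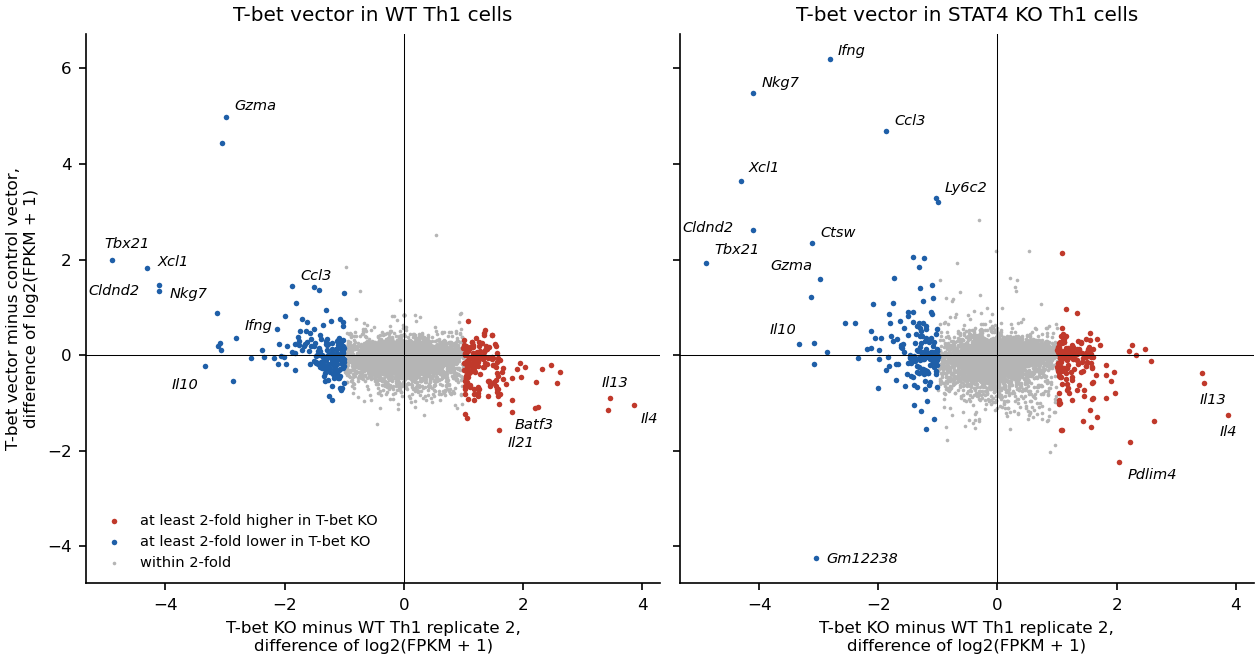
Each point is 1 of the genes compared; the horizontal axis is the T-bet KO difference and the vertical axis the difference between T-bet vector and control vector, in WT Th1 cells (left) and STAT4 KO Th1 cells (right), both as log2(FPKM + 1). Blue and red points are at least 2-fold lower and higher in T-bet KO. Xcl1, Nkg7, Cldnd2, Ccl3 and Gzma lie at the upper left of both panels, Ifng only in the STAT4 KO panel, and Il4 at the lower right of both.

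Set beside the lineage and STAT4 contrasts of the series, the genes lower in T-bet KO cells were often lower in Th2 cells and in cells without STAT4. Between WT Th2 cells and WT Th1 replicate 1, 636 genes (7.98%) were at least 2-fold lower and 584 (7.33%) higher in Th2. Of the 180 genes lower in T-bet KO cells, 70 (38.9%) were lower in Th2, 11% of all genes lower there, and 12 (6.67%) were higher, among them Il10, Gzma, Havcr2 and Prdm1. Of the 163 genes higher in T-bet KO cells, 41 (25.2%) were higher in Th2 and 23 (14.1%) lower. The 41 include Il4, Il13, Il31, Ccr4 and Tnfrsf8; the 23 include Eomes, Ccl5, Il2, Il21 and Gbp2. Between STAT4 KO Th1 cells and WT Th1 replicate 1, 426 genes (5.35%) were lower and 240 (3.01%) higher without STAT4. Of the 180, 70 (38.9%) were also lower without STAT4 and 5 higher (Gzma, Prf1, Bcl6, Spp1 and Txnip); of 162 higher genes with a value, 27 (16.7%) were higher and 18 (11.1%) lower. These last 2 contrasts share WT Th1 replicate 1 with each other, but no library with the T-bet KO pair. Tns4 was lower both in Th2 cells and without STAT4, at 0.018 FPKM in WT Th2 cells and 0.18 FPKM in STAT4 KO Th1 cells, against 1.45 FPKM in WT Th1 replicate 1.

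**Figure D5:**
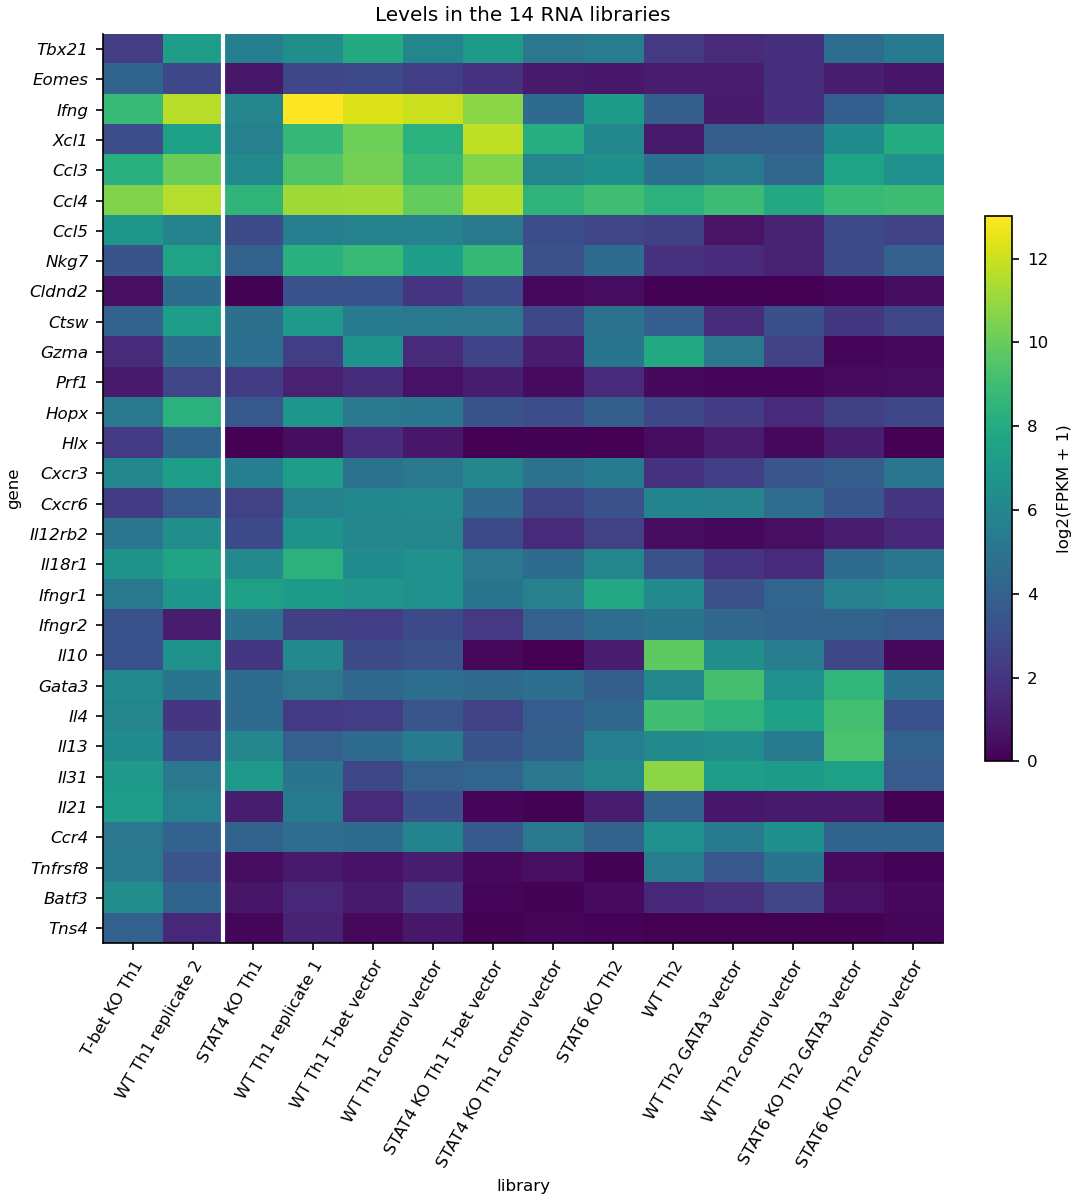
Levels of 30 genes (rows) in the 14 RNA libraries (columns), coloured by log2(FPKM + 1), with T-bet KO and WT Th1 replicate 2 left of the white line. Nkg7 and Xcl1 are low in T-bet KO and high with the T-bet vector in both genotypes. Cldnd2 is low in T-bet KO and, in both genotypes, higher with the T-bet vector than with the control vector. With the T-bet vector Cldnd2 stays below its level in WT Th1 replicate 2. Il4 is highest in the WT Th2 libraries and in STAT6 KO Th2 cells with the GATA3 vector, and Batf3 and Tns4 are highest in T-bet KO.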

How the data were processed

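RNA was measured in 14 libraries; per the labels' protocols, mirVana total RNA went into TruSeq libraries that were read for 100 cycles from 1 end on a HiSeq instrument. TopHat, Cufflinks and SICER, and the build mm9, are named in the submitters' processing notes; for their versions, the strand and the annotation, nothing was stated (not given in the sources used here). Each deposited table lists 1 FPKM per gene from the authors' Cufflinks run, with a counting interval and a status, as its header shows. They hold no read counts, so total depth is unknown. The median distance from value to upper bound in T-bet KO and in WT Th1 replicate 2 was 7.91% and 7.25% at 3 to 10 FPKM, and 1.79% and 1.63% at 100 FPKM or more. It covers counting error only.

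Differences are log2(FPKM + 1) in T-bet KO minus WT Th1 replicate 2, which understates low genes. Genes needed 3 FPKM in either library. Left out were 789 small RNA entries (Mir, Snora, Snord, Scarna, Rnu), 95 genes above the filter that Cufflinks marked as failed or low in data (Myc and Btla among them) and 14657 entries under the filter. Another 45 compared entries share a symbol with another locus and were not named. A gene was called at a difference of 1 (2-fold) with no test. Named genes are the 15 largest rises and falls at a single locus, without predicted or structural RNA genes, and members of gene lists; a few of these genes are not reported here. The members and lists were chosen with earlier results of these data known. Reads of near-identical relatives (Ly6c2 and Ly6c1, Ctla2a and Ctla2b, Gbp, Ifitm, Serpinb and histone genes) may be split between copies by the counting. Calculations used Python 3.11.15, numpy 2.4.6, pandas 2.3.3 and matplotlib 3.10.9, and were tested on simulated data. Alternatives were the pseudocount, the filter, the scaling, the WT Th1 library and the fold threshold.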

Additional observations from a re-analysis of the deposited data

How the results depend on the processing

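The counts moved most with the WT Th1 library. Against WT Th1 replicate 1 in place of replicate 2, 1388 genes were at least 2-fold higher and 1384 lower in T-bet KO, of which 105 and 67 were among the 163 and 180 (the filter then reads replicate 1); against the mean of both WT Th1 libraries, 486 were higher and 295 lower. With replicate 1, Pik3ap1 (0.30), Dnm1 (1.98) and Dapl1 (−0.20) changed direction among the 30 genes with the largest differences, and the cause was not tested. A pseudocount of 5 FPKM, which shrinks low genes, left 60 higher and 66 lower, all among the reported ones. A filter at 10 FPKM left 115 higher and 95 lower because fewer genes were compared, and a 4-fold threshold left 11 and 22. A pseudocount of 0.1 FPKM, a filter at 1 FPKM, no filter, 3 scalings and leaving out symbols at several loci kept both counts within 1.5-fold, between 143 and 234 higher and between 171 and 263 lower. The scalings changed T-bet KO levels by log2 factors of 0.02, 0.02 and −0.05, which shift low genes by less. No paired analysis was possible because 1 library was compared with 1.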

Other observations

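Genes of other immune functions also passed 2-fold in T-bet KO cells. Lif, a cytokine of the IL-6 family, was at 567 FPKM in T-bet KO cells against 188 and 438 FPKM in WT Th1 replicates 2 and 1 (1.58). The feedback inhibitor Socs2 was at 53.6 FPKM in T-bet KO cells against 16.9 and 32.4 FPKM in the WT Th1 libraries (1.61). Tnfsf8, the ligand of CD30, was at 453 FPKM in T-bet KO cells, 187 FPKM in WT Th1 replicate 2 and 654 FPKM in replicate 1 (1.27), while its receptor Tnfrsf8 is described above. The costimulatory receptor Tnfrsf9 (4-1BB) was lower, at 98.8 FPKM in T-bet KO cells against 228 and 164 FPKM in the WT Th1 libraries (−1.20). Bcl6 and Prdm1, which repress each other and steer follicular helper and effector fates, were both lower, at 1.90 and 4.74 FPKM in T-bet KO cells against 6.41 and 11.2 FPKM in WT Th1 replicate 2 (−1.36 and −1.08); in WT Th1 replicate 1 they were at 4.67 and 4.81 FPKM.

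The following were noticed after the values were seen. Tbkbp1, the gene next to Tbx21 on mm9 chromosome 11 with 20840 bases between them, was at 106 FPKM in T-bet KO cells against 39.1 and 11.3 FPKM in the WT Th1 libraries (1.42). Of the 54 genes compared within 2 Mb on either side of Tbx21, 4 were at least 2-fold higher (Tbkbp1, Ikzf3, Top2a and Tns4) and 1 lower (Arl5c), or 9.26%, against 4.92% on all of chromosome 11 and 4.30% over all genes compared. Within 1 Mb it was 7.41% of 27 genes, within 5 Mb 5.77% of 104 and within 10 Mb 3.66% of 164. Cdkn2a and its neighbour Cdkn2b were both higher (2.47 and 1.72). The predicted gene Gm12238 was listed at 0 FPKM in T-bet KO cells, in STAT4 KO Th1 cells with the T-bet vector, in WT Th1 cells with the control vector and in WT Th2 cells, and at 20.8 FPKM in WT Th1 cells with the T-bet vector, so its agreement with Tbx21 was not the same in the 2 vector pairs.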
